A study of Homo sapiens with 16 samples.

Results

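The 8 genes described here handle zinc: the metallothionein genes MT1E, MT1F, MT1G, MT1M, MT1X and MT2A, the zinc-sensing transcription factor gene MTF1, and SLC30A1, which encodes the zinc exporter ZnT1. They were chosen by name and are 8 of the 62703 genes in the count table. The series counted messenger RNA by 3′ tag sequencing in 16 libraries of spheroids, small free-floating cell aggregates, grown from 3 lines of prostate cancer cells, LNCaP, 22Rv1 and PC3. LNCaP cells need androgen and are sensitive to the androgen pathway inhibitor enzalutamide, 22Rv1 cells are androgen responsive yet enzalutamide resistant, and PC3 cells grow without androgen. Each line received 25 pmol of a small interfering RNA (siRNA) pool, either a non-targeting one (siCtrl) or one against MED12 (siMED12), a subunit of the Mediator kinase module. After 3 days in 2D culture the cells were reseeded and kept as spheroids for 4 days. Each group was 1 unmodified cell line, and the labels name no drug or added metal. The groups were siCtrl with 3 libraries in each line, siMED12 with 3 libraries in LNCaP, and siMED12 with replicates 1 and 3 for 22Rv1 and likewise for PC3. The labels do not say whether replicates were separate cultures. The paper says in general that its experiments used 3 or more biological replicates, with exceptions marked. The p-values measure the spread between these libraries, which may be biological or technical.

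Metallothioneins are small cysteine-rich proteins that bind zinc and copper and buffer the free metal in the cell. When zinc rises, MTF1 binds metal response elements in front of the metallothionein genes and SLC30A1 and activates them, so these messenger RNAs are widely used as a readout of available zinc. Normal prostate epithelium stores unusually much zinc, and prostate cancer cells typically lose this trait.

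The 250 bases upstream of the annotated start are shown for the members with a RefSeq promoter entry, because the metal response element is the sequence that links MTF1 to its target genes. The capitals mark each match to its core, TGCACNC or TGCGCNC, searched on both strands, and a core on the other strand reads GNGTGCA or GNGCGCA. Sequences are from RefSeq on GRCh38.p14 and run 5′ to 3′ along the gene, at chr16:56608334-56608583 on the plus strand for MT2A, chr16:56682220-56682469 on the plus strand for MT1X, chr1:211579162-211579411 on the minus strand for SLC30A1 and chr1:37859593-37859842 on the minus strand for MTF1.
MT2A: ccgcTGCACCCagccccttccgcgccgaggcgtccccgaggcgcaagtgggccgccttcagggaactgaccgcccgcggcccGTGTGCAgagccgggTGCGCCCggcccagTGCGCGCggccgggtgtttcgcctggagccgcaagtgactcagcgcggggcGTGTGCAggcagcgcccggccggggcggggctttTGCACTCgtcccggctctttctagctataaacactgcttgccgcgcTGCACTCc
MT1X: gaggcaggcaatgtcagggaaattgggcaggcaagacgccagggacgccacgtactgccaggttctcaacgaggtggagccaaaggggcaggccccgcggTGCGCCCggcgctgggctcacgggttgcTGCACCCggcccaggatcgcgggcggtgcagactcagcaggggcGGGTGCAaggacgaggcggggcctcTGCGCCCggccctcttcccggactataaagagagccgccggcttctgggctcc
SLC30A1: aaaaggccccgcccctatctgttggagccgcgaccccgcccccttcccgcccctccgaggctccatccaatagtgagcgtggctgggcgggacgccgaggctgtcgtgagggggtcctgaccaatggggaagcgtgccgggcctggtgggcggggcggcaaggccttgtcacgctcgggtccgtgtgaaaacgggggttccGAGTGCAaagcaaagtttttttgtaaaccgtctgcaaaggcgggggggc
MTF1: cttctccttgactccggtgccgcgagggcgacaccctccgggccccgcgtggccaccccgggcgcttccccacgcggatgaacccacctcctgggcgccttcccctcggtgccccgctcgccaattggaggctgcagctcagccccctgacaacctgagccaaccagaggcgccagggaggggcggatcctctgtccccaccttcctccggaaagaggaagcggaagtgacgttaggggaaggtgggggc

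MT2A held 7 matches, 5 on the gene strand and 2 on the other, and MT1X held 4, 3 and 1 on these strands. SLC30A1 held 1 match, on the other strand and starting 49 bases before the start, and none of the letters matched in MTF1. Of 35116 promoters of the same length, 24.8% held at least 1 match, 0.37% at least 4 and 0.0313% at least 7. The MT2A window thus stood among the 11 richest in this core, and the single match of SLC30A1 was a common count. Of the 8 members, 4 had an entry, and MT1E, MT1F, MT1G and MT1M had none. A match is a run of letters and was not tested for binding.

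**Figure D1:**
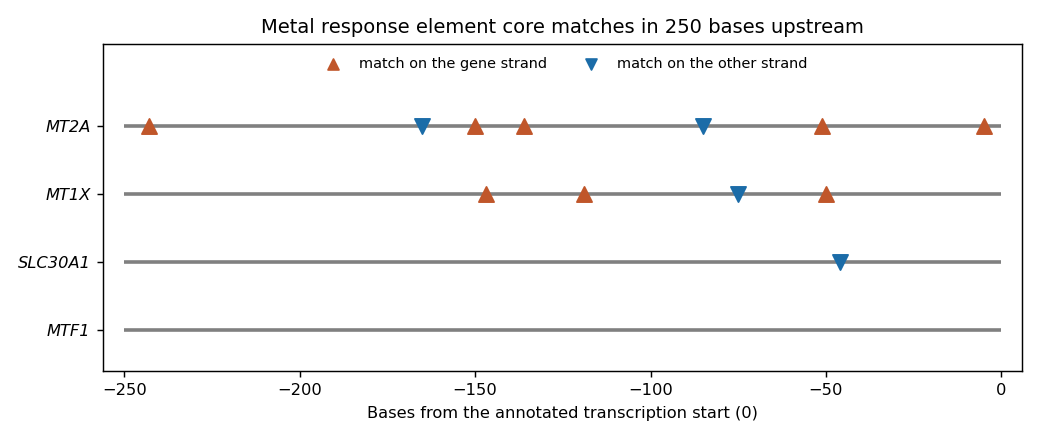
Positions of the metal response element core in the 250 bases upstream of 4 genes. The x axis is the distance in bases from the annotated start, each triangle is the centre of a match and its direction gives the strand. MT2A has 7 triangles, MT1X 4, SLC30A1 1 and MTF1 none.

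The 6 metallothionein members lie within 75613 bases of chromosome 16 (chr16:56608584-56684196, GRCh38, Gencode 44), and each is protein coding. MT2A (ENSG00000125148) spans chr16:56608584-56609497 and MT1X (ENSG00000187193) spans chr16:56682470-56684196, both on the plus strand with 3 exons. Between them lie MT1E (ENSG00000169715, chr16:56625475-56627112), MT1M (ENSG00000205364, chr16:56632659-56633981) and MT1F (ENSG00000198417, chr16:56657731-56660698) on the plus strand and MT1G (ENSG00000125144, chr16:56666730-56668065) on the minus strand. MTF1 (ENSG00000188786), with 11 exons, spans chr1:37809574-37859592 on the minus strand, and SLC30A1 (ENSG00000170385), with 2 exons, spans chr1:211571568-211579161 on the same strand. The metallothionein transcripts end in similar sequence: over the last 200 bases of their canonical transcripts the pairs were 76.2% to 92.4% identical. MT1E and MT1M were the closest pair, with a longest shared run of 45 bases, so 3′ tags of these genes could be split between copies and single metallothionein genes are uncertain where counts are low. A tag counts 1 transcript end, so no value here was scaled by transcript length.

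Total counts ran from 479118 to 993807 per library. Levels are in CPM, counts per 1e6 counts after TMM scaling, which sets the libraries level on the bulk of their genes. A count of 0 allows up to 3 counts, or 3.15 to 6.22 CPM depending on the library, from counting error alone. Marker genes went with the line labels: the summed level of 5 luminal genes such as KLK3 and KLK2 was 4757 to 5613 CPM in LNCaP siCtrl, 476 to 498 CPM in 22Rv1 siCtrl and 88.3 to 126 CPM in PC3 siCtrl. That of 7 genes such as VIM and CAV1 was 2917 to 3419.9 CPM in PC3 siCtrl and 80.2 to 155 CPM in LNCaP siCtrl. The targeted gene was read shallowly in these libraries, while the paper describes its MED12 knockdown as highly efficient, in spheroids too. The MED12 level averaged 11.5 CPM in siCtrl and 8.0 CPM in siMED12 libraries of LNCaP, 19.8 and 8.2 CPM in 22Rv1, and 18.5 and 15.2 CPM in PC3, and the adjusted p of the edgeR quasi-likelihood test was 0.878, 0.175 and 0.987. Transcripts of one line were also found in libraries of another. Genes high in PC3 siCtrl and nearly absent from 22Rv1 siCtrl reached 4.86% of their PC3 level in 22Rv1 siMED12 replicate 3, against 0.479% to 0.658% in the other 22Rv1 libraries. Genes of LNCaP reached 2.5% of their level in PC3 siMED12 replicate 3, against 0.36% to 0.644% in the other PC3 libraries. These 2 libraries stand apart, and the siMED12 log2 fold changes of the members in 22Rv1 and PC3 are given with and without them where the counts allow a fold.

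Only 3 of the 8 members passed the expression filter of edgeR, MT2A, MT1X and SLC30A1, and were tested among 10566 genes. The others are given by their counts and by a fit of all 24803 genes with at least 1 count. A gene that passed the test has an adjusted p under 0.05.

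The first question was at what level each line expressed these genes without the MED12 siRNA. MT2A, the most widely expressed metallothionein, was the most counted member in every line, and the lines differed in which minor metallothioneins accompanied it. LNCaP carried MT1X and the highest MTF1 level, and 22Rv1 had counts of all 6 metallothioneins. PC3 had MT1F, with MT1X and MT1M both low (siCtrl means of 4.06 and 3.25 CPM). SLC30A1 overlapped between the lines.

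MT2A was at 29.8, 18.6 and 47.7 CPM in the 3 LNCaP siCtrl libraries, at 58.6, 50.1 and 56.5 CPM in 22Rv1 siCtrl and at 33.5, 54.7 and 44.8 CPM in PC3 siCtrl. Each 22Rv1 library was above each LNCaP library, while PC3 overlapped both. The means were 32.0 ± 14.7 CPM (SD, n = 3) in LNCaP, 44.3 ± 10.6 CPM in PC3 and 55.1 ± 4.38 CPM in 22Rv1. No neighbour in this order differed past the threshold, and the MT2A difference between 22Rv1 and LNCaP had a log2 value of 0.72 (SE 0.31) with an adjusted p of 0.0565 by edgeR. That p crossed the threshold in 5 of 14 alternatives, with a range of 0.00981 to 0.254, and was lowest without LNCaP siCtrl replicate 3 (log2 1.22). Without the same library the difference between PC3 and LNCaP also passed (log2 0.91, adjusted p 0.047, against 0.261 with it).

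MT1X, a metallothionein 1 isoform, was lowest in PC3. Its siCtrl libraries were at 13.2, 7.16 and 14.8 CPM in LNCaP, at 13.01, 23.4 and 6.42 CPM in 22Rv1 and at 2.58, 5.26 and 4.33 CPM in PC3. All PC3 libraries were below all libraries of the other lines, and LNCaP and 22Rv1 overlapped. MT1X was lower in PC3 than in LNCaP with a log2 difference of -1.50 (SE 0.57, adjusted p 0.026) and lower than in 22Rv1 with -1.68 (SE 0.56, adjusted p 0.0118). Between 22Rv1 and LNCaP it was 0.18 (SE 0.45, adjusted p 0.788). The PC3 to LNCaP call on MT1X was lost with DESeq2 (adjusted p 0.0868) and without LNCaP siCtrl replicate 1 (0.0581), LNCaP siCtrl replicate 3 (0.139) or PC3 siCtrl replicate 1 (0.0843). The call against 22Rv1 was lost without 22Rv1 siCtrl replicate 2, whose 23.4 CPM was the highest MT1X level of the series (log2 -1.20, adjusted p 0.113).

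SLC30A1 exports zinc across the plasma membrane and is, with the metallothioneins, a classical MTF1 target. It was at 18.2, 14.3 and 30.7 CPM in LNCaP siCtrl, at 20.8, 23.4 and 28.2 CPM in 22Rv1 siCtrl and at 28.4, 28.4 and 21.7 CPM in PC3 siCtrl. The 3 groups overlapped, with means of 21.1 ± 8.58, 24.1 ± 3.76 and 26.1 ± 3.87 CPM (SD, n = 3). The largest SLC30A1 difference, PC3 above LNCaP, was 0.26 on the log2 scale with a 95% interval of -0.38 to 0.90 and an adjusted p of 0.511. The interval leaves room for differences in either direction.

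Among these 3 tested members, none passed between 22Rv1 and LNCaP, and MT1X alone passed in each comparison with PC3. MT1X entered the test through LNCaP and 22Rv1 libraries, since its PC3 siCtrl libraries held 2 to 5 counts, under the filter's minimum count of 10. Its lower level in PC3 is thus not independent of that filter. The background is high: 43.2% of tested genes passed between 22Rv1 and LNCaP, 54.7% between PC3 and LNCaP and 54.9% between PC3 and 22Rv1. For the comparison with 0 calls, 1 of the 3 had an unadjusted p under 0.05 by edgeR, beside 49.5% of all tested genes. DESeq2 and limma also called 0 there. Groups whose libraries did not overlap were as common, at 51.2%, 60.2% and 58.9% of tested genes in the same order.

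The other 5 members were low, and MT1E and, among siCtrl libraries, MT1G were counted in 22Rv1 alone. MT1E had 12, 6 and 6 counts in 22Rv1 siCtrl, or 15.6, 10.0 and 7.7 CPM, and 0 counts in each of the 6 LNCaP and 5 PC3 libraries. Set against a floor of 3 counts per library, MT1E was at least 2.68-fold higher in 22Rv1 than in LNCaP and at least 2.94-fold higher than in PC3. MT1G had 8, 2 and 4 counts in 22Rv1 siCtrl and 0 in every siCtrl library of the other lines, which makes it at least 1.52-fold and 1.66-fold higher in 22Rv1. In the fit of all genes with a count, the adjusted p against LNCaP and PC3 was 1.97e-06 and 6.05e-07 for MT1E and 0.000633 and 0.000297 for MT1G. Both genes kept these calls under all 12 alternatives tried, which reuse the same counts. MT1E entered this fit through 22Rv1 libraries only and MT1G mostly so, and their higher level there is thus not independent of that entry. The calls rest on 24 and 14 counts in 22Rv1 siCtrl.

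MT1F had its highest mean in PC3. It had 5, 12 and 8 counts in PC3 siCtrl (10.2 ± 3.3 CPM), 6, 2 and 1 in 22Rv1 siCtrl (4.14 ± 3.34 CPM) and 1, 0 and 1 in LNCaP siCtrl (0.906 ± 0.839 CPM). PC3 was above LNCaP in each library, and the MT1F difference passed (adjusted p 0.000126) under all 12 alternatives too. PC3 and 22Rv1 were not distinguished for MT1F (log2 1.27, SE 0.56, adjusted p 0.0811), although it passed without 22Rv1 siCtrl replicate 1 (0.0211) or PC3 siCtrl replicate 1 (0.0413). MT1M, the isoform whose end resembles that of MT1E, was counted 4, 3 and 1 times in PC3 siCtrl, 2, 1 and 0 times in 22Rv1 siCtrl and never in LNCaP. The MT1M mean of 3.25 CPM in PC3 lay under the mean floor of the LNCaP siCtrl libraries (4.15 CPM), so no fold is given. Its adjusted p of 0.021 between PC3 and LNCaP was lost with DESeq2 (0.138), without PC3 siCtrl replicate 1 (0.0908) and without any 1 of the LNCaP siCtrl libraries (0.0508 to 0.0954). With no LNCaP count, MT1M entered this fit through the other lines.

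MTF1 carries the sensor of the pathway and was counted more in LNCaP than in the other lines. Its siCtrl libraries held 10, 9 and 7 counts in LNCaP, 3, 3 and 2 in 22Rv1 and 2, 4 and 1 in PC3, which is 12.3 ± 4.6, 3.83 ± 1.23 and 2.74 ± 1.39 CPM (SD, n = 3). No LNCaP library overlapped those of the other lines. MTF1 was lower than in LNCaP by a log2 difference of -1.59 (SE 0.57, adjusted p 0.0277) in 22Rv1 and of -1.94 (SE 0.58, adjusted p 0.00421) in PC3. With DESeq2 neither MTF1 call passed (adjusted p 0.152 and 0.0547). The 22Rv1 call was also lost without LNCaP siCtrl replicate 1 (0.143) or 2 (0.0795) and without 22Rv1 siCtrl replicate 1 (0.0721) or 3 (0.14). At 1 to 4 counts per library in 22Rv1 and PC3, these levels sit near the floor.

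In this wider fit, 3 of the 5 low members passed between 22Rv1 and LNCaP, 3 between PC3 and LNCaP and 2 between PC3 and 22Rv1, where 19.7%, 27% and 26.8% of 24803 genes did. DESeq2 called 2, 1 and 2 of them.

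**Figure D2:**
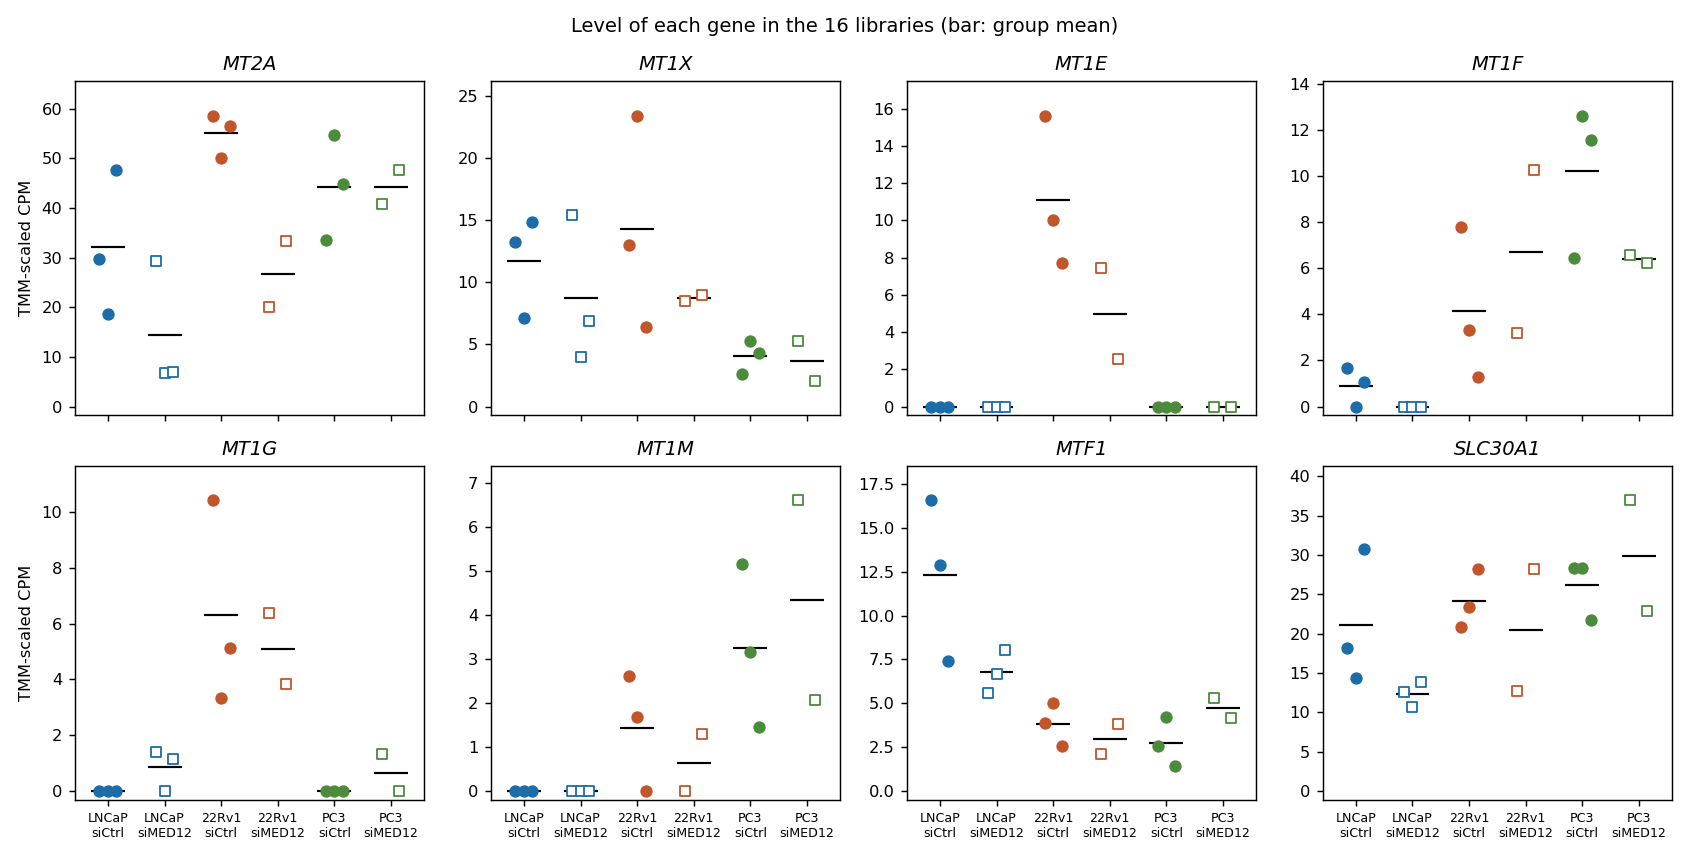
Level of each of the 8 genes in TMM-scaled CPM (y axis, linear, a scale for each gene) in the 6 groups (x axis). Each symbol is 1 library, filled circles siCtrl and open squares siMED12, and the bar is the group mean. MT1E is above 0 in 22Rv1 libraries only, and MT2A in 22Rv1 siMED12 (20.1 and 33.3 CPM) lies below its 3 siCtrl libraries.

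MT2A supplied 67.9% of the 159 metallothionein counts of the LNCaP libraries, 56.9% of 288 in 22Rv1 and 72.1% of 226 in PC3, siCtrl and siMED12 pooled. MT1X followed with 29.6% in LNCaP and 15.3% in 22Rv1, while in PC3 MT1F came second with 14.6%. MT1E made up 11.5% of the metallothionein counts in 22Rv1, and its 0 counts allow a share of up to 1.89% in LNCaP and 1.33% in PC3. The summed metallothionein level averaged 44.7 ± 18.9 CPM in LNCaP siCtrl, 92.3 ± 15.5 CPM in 22Rv1 siCtrl and 61.9 ± 14.0 CPM in PC3 siCtrl.

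**Figure D3:**
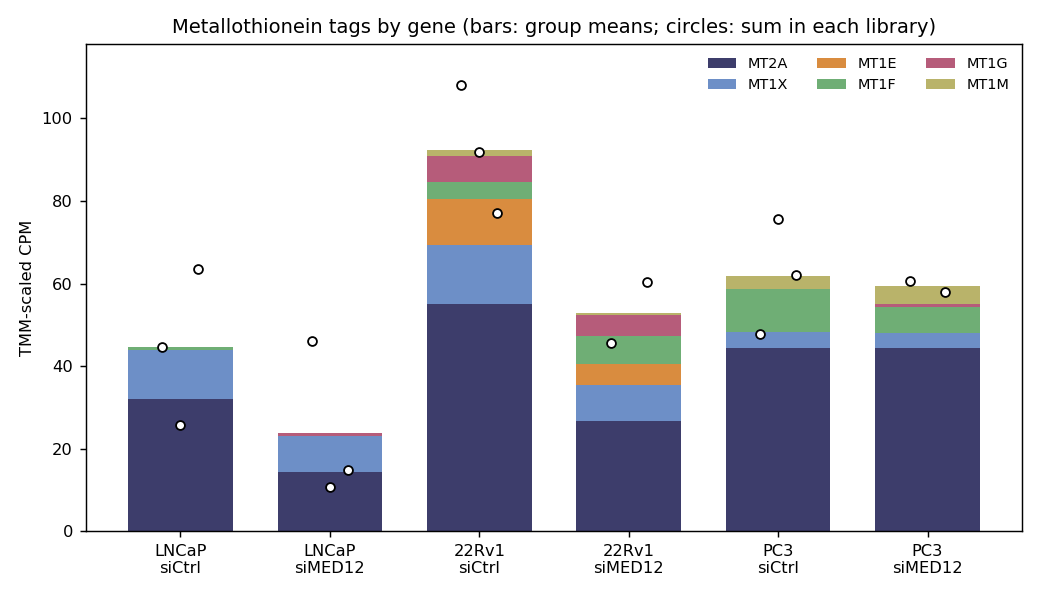
Metallothionein tags in each group, in TMM-scaled CPM. Stacked bars are group means of the 6 genes and circles are the sum in each library. In 22Rv1 both siMED12 circles, at 45.6 and 60.3 CPM, lie below the 3 siCtrl circles, at 77.0 to 108 CPM.

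The second question was whether transfection of the MED12 siRNA went with a different level of these genes. MT2A had lower means in siMED12 than in siCtrl libraries of LNCaP and 22Rv1, at fitted folds of 0.414 and 0.476, and equal means in PC3. SLC30A1 was lower in LNCaP at a fold of 0.565. None of these differences passed the adjusted threshold in any line, nor did MT1X at a fold of 0.719 in LNCaP, 0.646 in 22Rv1 and 0.975 in PC3. In bulk spheroids fewer cells of a type and less RNA per cell cannot be told apart.

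In LNCaP, MT2A was at 29.4, 6.67 and 6.9 CPM in the 3 siMED12 libraries, against 29.8, 18.6 and 47.7 CPM in siCtrl. Replicates 2 and 3 were below every siCtrl library, and replicate 1 was inside their range. The MT2A log2 fold change was -1.27 (SE 0.40, 95% interval -2.09 to -0.45, adjusted p 0.262). Without siMED12 replicate 1 it was -2.27 with an adjusted p of 0.0093, and without siCtrl replicate 3 it was -0.77 with 0.909. Over 14 alternatives the adjusted p ran from 0.0093 to 0.917, and when all genes with a count were fitted together it was 0.0352. The summed luminal markers were at 3133 to 3999 CPM in these siMED12 libraries against 4757 to 5613 CPM in siCtrl, with 3 of the 5 genes lower on average and 2 higher, and their part in the result was not tested.

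In 22Rv1, MT2A was at 20.1 and 33.3 CPM in siMED12 replicates 1 and 3, both below the siCtrl range of 50.1 to 58.6 CPM. The MT2A log2 fold change was -1.07 (SE 0.35, 95% interval -1.79 to -0.35, adjusted p 0.135). It was -1.45 (0.138) without siMED12 replicate 3, the library with transcripts of PC3, and -0.73 (0.647) without replicate 1. With the carried-over counts subtracted the MT2A value was -1.10 (0.126). The adjusted p over 13 alternatives ran from 0.0391, in the fit of all genes with a count, to 0.647, and it also passed with the replicate number as a block (log2 -1.12, adjusted p 0.0456). The summed luminal markers were at 376 and 389 CPM in siMED12 against 476 to 498 CPM in siCtrl, with 3 of the 5 genes lower on average and 2 higher. The 3 epithelial markers KRT8, KRT18 and EPCAM summed to 1732 and 1548 CPM against 1268 to 1316 CPM, and the 7 PC3 markers to 191 and 357 CPM against 134 to 151 CPM. The 357 CPM was that of replicate 3, the library with transcripts of PC3. The part of these marker levels in the result was not tested.

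In PC3, MT2A was at 40.9 and 47.7 CPM in siMED12, inside the siCtrl range. Its log2 fold change of -0.04 (SE 0.35) had a 95% interval of -0.75 to 0.68, so a change of the size estimated in LNCaP lies outside it. Without siMED12 replicate 3, the library with transcripts of LNCaP, the MT2A value was -0.13. The difference of the MT2A effects was 1.23 (SE 0.54, p 0.0288, adjusted p 0.951) between PC3 and LNCaP and 1.03 (SE 0.50, p 0.0484, adjusted p 0.541) between PC3 and 22Rv1, and thus the lines were not shown to differ.

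Averaged over the lines, MT2A had a log2 effect of -0.79 (SE 0.21, 95% interval -1.23 to -0.36), an unadjusted p of 0.000764 and an adjusted p of 0.136. Over 23 alternatives this mean stayed negative, between -1.13 and -0.63, and the adjusted p, from 0.00516 to 0.47, was under the threshold in 2, the fit of all genes with a count and without LNCaP siMED12 replicate 1 (0.00666).

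MT1X was at 15.4, 4.0 and 6.9 CPM in LNCaP siMED12, at 8.48 and 8.98 CPM in 22Rv1 siMED12 and at 5.28 and 2.07 CPM in PC3 siMED12. In 22Rv1 both lay inside the siCtrl range. In LNCaP replicate 1 lay above it and the others below, and in PC3 replicate 1 lay just above it and replicate 3 below, so neither line separated the groups. In LNCaP the MT1X log2 fold change was -0.48 (SE 0.49, adjusted p 0.884). In 22Rv1 it was -0.63 (SE 0.52, adjusted p 0.704), and -0.67 without siMED12 replicate 3. In PC3, at 1 to 5 counts per library, it was -0.04 (SE 0.87, adjusted p 1), and 0.34 without siMED12 replicate 3. In LNCaP the library with the highest MT1X level, replicate 1, was also the highest for MT2A.

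SLC30A1 was at 12.6, 10.7 and 13.8 CPM in LNCaP siMED12, and each library was below the siCtrl minimum of 14.3 CPM. The SLC30A1 log2 fold change was -0.82 (SE 0.37, 95% interval -1.58 to -0.07, unadjusted p 0.0339, adjusted p 0.631), and without siCtrl replicate 3 it was -0.36 (0.957). In 22Rv1 it was at 12.7 and 28.2 CPM, 1 library below and 1 inside the siCtrl range (log2 -0.29, SE 0.36, adjusted p 0.82). This value was -0.92 without siMED12 replicate 3 and 0.22 without replicate 1. In PC3 SLC30A1 was at 36.9 and 22.8 CPM (log2 0.24, SE 0.34, adjusted p 0.978), and at 0.48 without siMED12 replicate 3. The SLC30A1 effects of PC3 and LNCaP differed by 1.06 (SE 0.51, p 0.0443, adjusted p 0.951).

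The low members gave little to compare. MT1E had 7 and 2 counts in 22Rv1 siMED12, or 7.42 and 2.57 CPM, below its 3 siCtrl libraries (11.1 ± 4.07 CPM), at log2 -1.04 (SE 0.59, adjusted p 0.874), and at -0.58 without replicate 3. MT1G was at 5.1 CPM against 6.3 CPM in 22Rv1 (log2 -0.28, and -0.030 without replicate 3), and single counts in 2 LNCaP and 1 PC3 siMED12 libraries were within the floor. MT1F was at 6.41 CPM in PC3 siMED12 against 10.2 CPM in siCtrl (log2 -0.66, adjusted p 1, and -0.65 without replicate 3), and at 6.72 against 4.14 CPM in 22Rv1 (0.966). The 22Rv1 value rests on replicate 3, the library with transcripts of PC3, which held 8 of the 11 MT1F counts. Subtraction of carried-over counts left these 8 counts at 8. The MT1F log2 fold change in 22Rv1 was 0.63 with that library and -0.38 without it. MT1M had 5 and 1 counts in PC3 siMED12 (log2 0.53, and 0.95 without replicate 3) and 0 and 1 in 22Rv1, too few for a fold. MTF1 was at 6.77 ± 1.23 CPM in LNCaP siMED12 against 12.3 ± 4.6 CPM in siCtrl, with overlapping libraries (log2 -0.76, SE 0.48, adjusted p 0.949). The MTF1 siMED12 means were 2.98 CPM in 22Rv1 (log2 -0.31, and -0.77 without replicate 3) and 4.71 CPM in PC3 (log2 0.72, and 0.82 without replicate 3).

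Of the 3 tested members none passed in LNCaP, 22Rv1 or PC3, or for the mean of the lines, where 0.416%, 1.84%, 0% and 0.265% of the 10566 genes did. None passed for the differences of effects of 22Rv1 and LNCaP, PC3 and LNCaP, or PC3 and 22Rv1, where 0.189%, 0.0284% and 0.0946% did. At an unadjusted p under 0.05 edgeR had 2, 1, 0 and 1 of the 3 members for the 3 lines and the mean, and 0, 2 and 1 for the differences. Of all tested genes 7.34%, 11.7%, 4.99% and 8.52% reached that p for the lines and the mean, and 8.28%, 5.02% and 9.16% for the differences. DESeq2 and limma called 0 in each, although DESeq2 gave no adjusted p for 1, 2, 0 and 3 of the members in the first 4 comparisons and for 2, 0 and 2 in the others. Of the 5 low members none passed in LNCaP, 22Rv1 or PC3 in the fit of all genes with a count, where 0.383%, 1.14% and 0.0363% of genes did. None of the 5 had an unadjusted p under 0.05, and DESeq2 called 0 in PC3 and gave no adjusted p for any of the 5 in LNCaP and 22Rv1. Libraries that did not overlap were seen for SLC30A1 in LNCaP and for MT2A in 22Rv1, both lower. Of the genes past the filter 6.75% and 12.9% were separated downward in LNCaP and 22Rv1. MT1E, which did not pass the filter, was also separated in 22Rv1, at 7.42 and 2.57 CPM against a siCtrl minimum of 7.70 CPM. No such share was taken over genes that did not pass it.

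**Figure D4:**
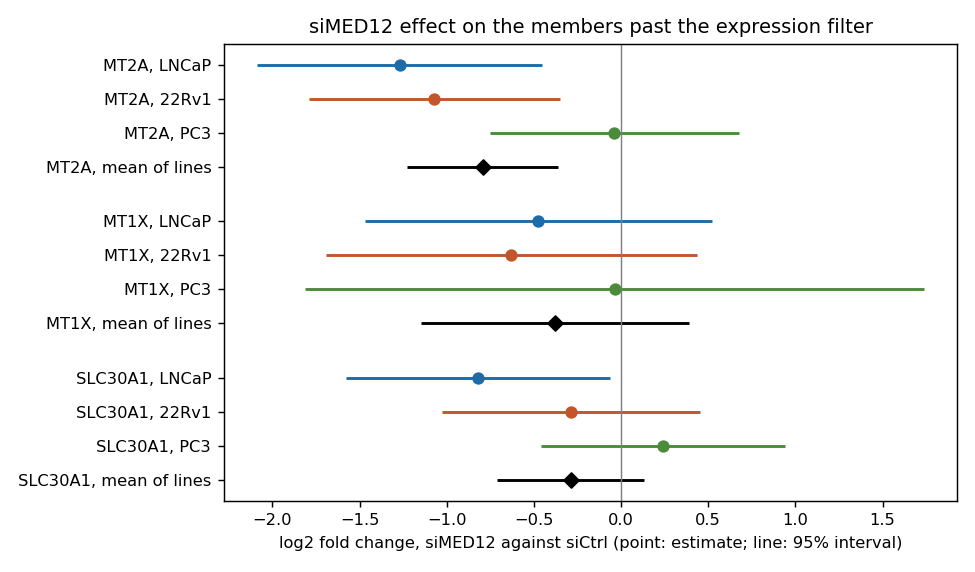
Log2 fold change of siMED12 against siCtrl (x axis) for MT2A, MT1X and SLC30A1 in each line, coloured by line, with the mean over the lines as a black diamond. Lines are 95% intervals of the edgeR fit. The MT2A intervals in LNCaP (-2.09 to -0.45) and 22Rv1 (-1.79 to -0.35) exclude 0 before adjustment over genes, and the one in PC3 spans it.

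After each library was centred on the mean of its line, the log2 CPM levels of MT2A and MT1X went together over the 16 libraries with a Pearson r of 0.654. The r was 0.628 for MT2A and SLC30A1 and 0.381 for MT1X and SLC30A1. These libraries share scaling and the siRNA groups, and r is given as a description. Among the 6718 genes that averaged 20 CPM or more, the ones most like the summed metallothionein level were OIP5 (r 0.87), PGAM1 (0.867), FBXL16 (0.842), GALNT14 (0.823) and PITPNA (0.798). Those most like SLC30A1 were EGFR (0.799), R3HDM1 (0.789), SRSF4 (0.782), DGAT1 (0.772) and RYBP (0.759). GALNT14 reached the average of 20 CPM through PC3. Its siCtrl and siMED12 means were 3.0 and 0.93 CPM in LNCaP and 1.98 and 0.64 CPM in 22Rv1. These lie under the floor, so the r of GALNT14 rests in part on very few counts. PGAM1 is a glycolytic enzyme, EGFR the epidermal growth factor receptor and DGAT1 an enzyme of triglyceride synthesis. The siMED12 effect on each of these 10 genes failed the adjusted threshold in every line.

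The rest of the zinc and copper system was read from lists of related genes. Of 15 other metallothionein genes and pseudogenes 7 had any count, none passed the expression filter and the highest total over all libraries was 41, for MT1P1. MT1A, MT1B and MT4 were among the 8 listed at 0 in all 16 libraries. The other SLC30 family genes are listed here as zinc exporters, although not every member moves zinc out of the cytosol. Of these exporters 5 of 9 were tested and of the SLC39 importers 10 of 14. Of the copper handling genes 5 of 8 were tested, and of the factors that act at metallothionein promoters 6 of 6. No gene of these lists passed for siMED12 in any line. At an unadjusted p under 0.05 edgeR had 0 of the 26 tested list genes in LNCaP, 2 in 22Rv1 and 2 in PC3, and DESeq2 and limma called 0 in each. For the mean of the lines edgeR called 0 with 3 at that p, and with the replicate block it called 1, SLC30A9 (log2 0.69, adjusted p 0.0283).

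The median siMED12 effect of the zinc exporters on the log2 scale was 0.15 in LNCaP, -0.75 in 22Rv1 and -0.03 in PC3, beside -0.0038, 0.0061 and -0.038 over all tested genes. SLC30A4, which passed the filter through LNCaP and was under the floor in the other lines, enters these values, and without it the median of the other 4 exporters was -0.34 in 22Rv1 and -0.02 in PC3. The zinc importers stood at 0.10, 0.02 and 0.08, the copper genes at 0.25, 0.01 and -0.26, and the promoter factors at 0.09, 0.05 and -0.09. The promoter factors include NR3C1, which was under the floor in LNCaP, and without it their median there was 0.23. The SLC30 family genes SLC30A7 and SLC30A9 were chosen after their values were seen, and zinc transport was not measured. SLC30A7, which serves the secretory pathway, was at 28.6 and 30.8 CPM in 22Rv1 siMED12, below its siCtrl libraries of 37.7 to 70.6 CPM (log2 -0.94, SE 0.32, adjusted p 0.148). SLC30A9 had positive estimates in LNCaP, 22Rv1 and PC3 (log2 0.41, 0.60 and 0.59) and for their mean (log2 0.53, SE 0.17, unadjusted p 0.00382, adjusted p 0.265).

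**Figure D5:**
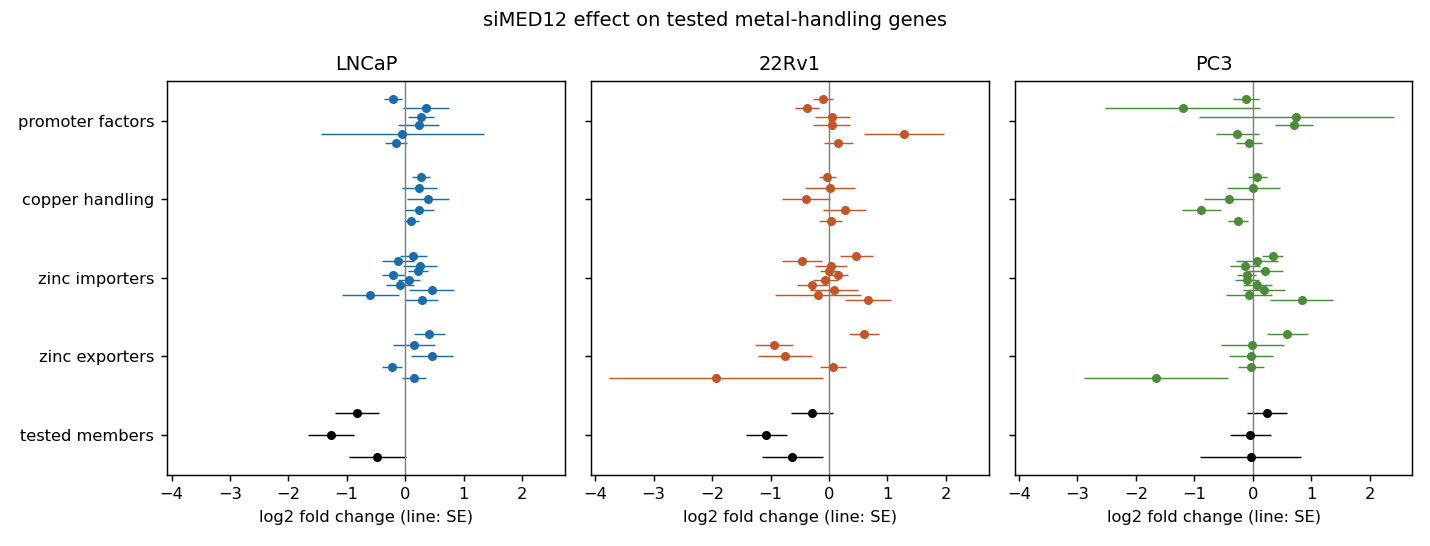
Log2 fold change of siMED12 against siCtrl (x axis, points, with SE as lines) for the tested members, in black, and for the tested genes of 4 related lists, coloured by line, in a panel for each line. In LNCaP the 3 members lie left of 0, in PC3 SLC30A1 lies right of it, and no point passed the adjusted threshold.

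Between the siCtrl groups related genes of all 4 lists passed the test. SLC30A4, an exporter that loads zinc into vesicles, was at 60.4 to 74.5 CPM in LNCaP, at 0 to 1.67 CPM in 22Rv1 and at 2.1 to 4.33 CPM in PC3 (adjusted p 1.71e-12 and 3.77e-12 against LNCaP). As SLC30A4 passed the filter through LNCaP, its lower levels in the other lines are not independent of that filter. SLC30A7 was higher in 22Rv1 than in LNCaP (57.3 against 23.6 CPM, log2 1.34, SE 0.31, adjusted p 0.000698). The importers SLC39A9 and SLC39A4 were higher in PC3 than in LNCaP, at 172 against 51.6 CPM (log2 1.74, adjusted p 5.81e-09) and 201 against 74.2 CPM (log2 1.44, adjusted p 5.03e-09). SLC39A9 was also higher in PC3 than in 22Rv1 (33.9 CPM, log2 2.34, adjusted p 6.3e-11).

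The copper chaperone ATOX1 was at 197 CPM in LNCaP and lower in 22Rv1 at 66.0 CPM (log2 -1.57, adjusted p 9.66e-10). CCS, the copper chaperone of superoxide dismutase, was higher in PC3 than in 22Rv1 at 43.8 against 17.9 CPM (log2 1.27, adjusted p 0.000517). USF1, a factor that binds E-box sequences, was at 123 CPM in 22Rv1, 12 CPM in LNCaP and 1.88 CPM in PC3 (adjusted p 2.51e-12 for 22Rv1 against LNCaP and 2.87e-15 for PC3 against 22Rv1). STAT3, which carries cytokine signals, was at 49.5 CPM in LNCaP and 31.0 CPM in 22Rv1 and had 1 count in the 3 PC3 siCtrl libraries (adjusted p 1.58e-11 and 2.92e-09). Both USF1 and STAT3 held under 10 counts in every PC3 library and passed the filter through the other lines. Their lower levels in PC3 are thus not independent of that filter. Of the exporters 3, 2 and 2 of 5 passed, in either direction, for 22Rv1 against LNCaP, PC3 against LNCaP and PC3 against 22Rv1. Of the importers 4, 7 and 4 of 10 passed in the same order, of the copper genes 3, 1 and 2 of 5 and of the promoter factors 3, 4 and 5 of 6, beside 43.2%, 54.7% and 54.9% of all tested genes.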

How the data were processed

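The authors made 3′ tag libraries (BRB-seq) from spheroid RNA and counted reads per gene with STARsolo against Gencode 43 on GRCh38.p13. They deposited raw counts for 16 libraries and a log2 CPM table of the filtered genes. Whether molecular identifiers were collapsed is not given in the sources used here, so a count may be a read or a molecule. The deposited log2 CPM values matched TMM-scaled log2 CPM recomputed from the counts (prior count 2). Groups were taken from the sample titles.

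Counts were filtered with filterByExpr over the 6 groups (minimum count 10, minimum total 15) and fitted in 1 model with a mean for each group by the quasi-likelihood test of edgeR 4.0.16 (R 4.3.3), 2-sided, with Benjamini-Hochberg adjustment over all tested genes and a threshold of 0.05. Libraries held 479118 to 993807 counts, and 3 counts were worth 3.15 to 6.22 CPM, so low levels rest on a few counts. Carried-over transcripts were measured on genes at 100 CPM or more in every siCtrl library of another line and at 1% of that or less in the siCtrl mean of the library's own line. Coordinates came from Gencode 44 through Biopython 1.88 and promoters from RefSeq. The fit was tested on simulated counts. DESeq2 1.42.0, limma 3.58.1 on the deposited log2 CPM, RLE scaling, no filter, groups fitted alone, subtraction of carried-over counts, a replicate block and leaving out each library were alternatives. The legacy edgeR test was added after the data were seen.

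All members are described. Related genes were named where they passed, up to 3 of each sign for siMED12 and, between siCtrl groups, the 2 of each sign with the largest fold and at least 20 CPM on average, and 5 genes by likeness to the metallothionein sum and to SLC30A1. The members and lists were chosen with earlier results of these data known. One gene of the luminal marker list is not reported here and was left out of its sum.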

Additional observations from a re-analysis of the deposited data

How the results depend on the processing

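The siMED12 calls on the members depended on the filter and on single libraries. With no expression filter, 1 of the members passed in LNCaP, 1 in 22Rv1 and 1 for the mean of the lines (each MT2A), and 4, 4 and 3 passed in the siCtrl comparisons 22Rv1 to LNCaP, PC3 to LNCaP and PC3 to 22Rv1, since all 8 members then enter the test. The siCtrl count for 22Rv1 to LNCaP was 1 with RLE scaling, with these groups fitted alone and with carried-over counts subtracted, each time MT2A, and that for PC3 to LNCaP was 0 with DESeq2. Leaving out each library in turn gave 0 to 1 called members in LNCaP, for the mean of the lines and in each siCtrl comparison. The cause of these changes was not tested.

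The replicate numbers were not treated as pairing the samples, since no label ties them to a shared culture or day. Within a line, siCtrl and siMED12 libraries of 1 number correlated in their deviations from the group means. The r was 0.127, 0.0874 and 0.116 in LNCaP, 0.161 and 0.214 in 22Rv1 and 0.073 and 0.0516 in PC3. For siCtrl libraries of 2 lines with the same number it ran from -0.0949 to 0.0666. In LNCaP, 6 of 6 libraries correlated best with their own number. These 6 are not separate observations, since both groups share the same correlations and deviations sum to 0 within a group. In 22Rv1 and PC3 the deviations of the 2 siMED12 libraries are exact opposites, so their r values are not independent either. The correlations are a hint of pairing from the data and not from the design, so the fit with a replicate block is given too. With the replicate block 1 member, MT2A, passed in 22Rv1 (log2 -1.12, adjusted p 0.0456), and MT2A had 0.0655 in LNCaP. MT1M between PC3 and LNCaP siCtrl was at 0.0834. The block turned the sign of the MT1X effect in PC3 (0.21), of its difference between 22Rv1 and LNCaP (0.32) and of the MT2A effect in PC3 (0.19, and 0.020 with limma).

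Signs also turned when 1 library was left out, none of them for a call. On the log2 scale the siMED12 effects then ran from -0.93 to 0.34 (MT1X, PC3), -0.20 to 0.17 (MT2A, PC3), -0.92 to 0.22 (SLC30A1, 22Rv1), -0.20 to 0.48 (SLC30A1, PC3), -0.38 to 1.49 (MT1F, 22Rv1), -0.73 to 0.26 (MT1G, 22Rv1), -0.64 to 0.95 (MT1M, PC3) and -0.77 to 0.044 (MTF1, 22Rv1). Differences of effects ran from -0.55 to 0.46, -0.47 to 1.05 and -0.29 to 0.97 for MT1X (22Rv1 and LNCaP, PC3 and LNCaP, PC3 and 22Rv1), and from -0.31 to 1.2 for MT2A and -0.10 to 1.04 for SLC30A1 between 22Rv1 and LNCaP. The siCtrl difference between 22Rv1 and LNCaP ran from -0.30 to 0.57 for MT1X and -0.062 to 0.60 for SLC30A1. Depth limits these values, since most members had under 30 counts in a library.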
